A study of Arabidopsis thaliana with 4 samples.

Results

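The comparison set the Arabidopsis thaliana double mutant ein5-1 ski2-3 against the wild type Col-0, with 1 small RNA library for each genotype out of 4 libraries in all. Both libraries came from aerial tissue of 18-day-old plants and held RNA below the 200 nt limit named in the labels. The remaining libraries were rdr6-11 ein5-1 ski2-3 (the triple mutant) and rdr6-11, which both lack RDR6 function and differ from each other in the same pair of decay mutations. The mutant alleles are carried by every cell of the plant from germination on, and each library is whole aerial tissue, so fewer cells of a type and less small RNA per cell cannot be told apart.

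Cytoplasmic mRNA is degraded from both ends. EIN5 (also called XRN4) is an exoribonuclease that digests uncapped mRNA from the 5′ end, and SKI2 is an RNA helicase that feeds mRNA to the exosome, which digests it from the 3′ end. RDR6 copies RNA that lacks a normal cap or tail into double-stranded RNA, which Dicer-like enzymes cut into small interfering RNAs (siRNAs). MicroRNAs (miRNAs) are cut from their own hairpin precursors and guide Argonaute proteins to matching mRNAs. The comparison asks which kinds of gene gain or lose small RNA reads when both decay routes are mutated.

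The deposited table counted reads over 33602 loci, with a total of 621515 reads for ein5-1 ski2-3 and 808276 for Col-0, against 877589 for the triple mutant and 878632 for rdr6-11. Counts were scaled to these totals as RPM (reads per 1000000 reads of the library), and 1 read was worth 1.61 RPM in ein5-1 ski2-3 and 1.24 RPM in Col-0. With no replicate libraries, no difference has a replicate check and no p-value is given. Intervals in brackets are exact 95% intervals of counting error only. A locus was measured when the ein5-1 ski2-3 and Col-0 libraries together held at least 20 reads. It was called higher or lower when its share of the library, after adding 1 read to each count, differed at least 4-fold and the counting interval excluded no change. The table has no column for read length or strand, so a count can hold siRNAs, other small RNAs and pieces of mRNA alike. EIN5 held 2 reads in ein5-1 ski2-3 and 2 in Col-0, SKI2 held 2 in ein5-1 ski2-3 and 4 in Col-0, and RDR6 held 3 in ein5-1 ski2-3 and 1 in Col-0, too few to check the genotype labels.

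The loss of reads at miRNA genes in ein5-1 ski2-3 was uneven between close copies of the same miRNA, and the gain at some mRNAs included those that miRNAs pair with, so the sequences are given first. The mature miRNAs are from RefSeq, build TAIR10.1, with the seed (bases 2 to 8) in capitals. They are the pairs of isoforms that moved unequally, the families that lost or gained the most RPM, and the regulators of the targets described afterwards. The isoforms of a pair share the seed and differ outside it.
ath-miR396a-5p: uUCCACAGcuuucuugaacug
ath-miR396b-5p: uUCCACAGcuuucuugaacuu
ath-miR159b-3p: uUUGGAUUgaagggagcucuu
ath-miR159a: uUUGGAUUgaagggagcucua
ath-miR167a-5p: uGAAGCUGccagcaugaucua
ath-miR167d: uGAAGCUGccagcaugaucugg
ath-miR319a: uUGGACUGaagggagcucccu
ath-miR319c: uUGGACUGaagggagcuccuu
ath-miR158a-3p: uCCCAAAUguagacaaagca
ath-miR161.1: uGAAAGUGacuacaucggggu
ath-miR169g-5p: uGAGCCAAggaugacuugccg
ath-miR172a: aGAAUCUUgaugaugcugcau
ath-miR390a-5p: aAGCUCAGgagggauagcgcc
ath-miR403-3p: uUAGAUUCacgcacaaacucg
ath-miR160a-5p: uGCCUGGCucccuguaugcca
ath-miR166a-3p: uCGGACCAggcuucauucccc
In TAIR10.1, miR396a-5p lies at chr2:4142443-4142463 on the minus strand and miR396b-5p at chr5:13611808-13611828 on the plus strand, and miR167d lies at chr1:11137556-11137577 on the plus strand.

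The sites that pair with them, read from the RefSeq transcripts of 6 targets, are shown with the bases opposite the seed in capitals. They are shown because 4 of these mRNAs gained small RNA reads and 2, AGO2 and TOE2, lost them.
REV, miR166 site: ctgggatgaagccTGGTCCGg
PHB, miR166 site: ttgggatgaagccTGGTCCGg
ARF10, miR160 site: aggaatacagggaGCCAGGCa
TOE1, miR172 site: cagcagcatcatcAGGATTCt
TOE2, miR172 site: atgcagcatcatcAGGATTCt
AGO2, miR403 site: ggagtttgtgcgtGAATCTAa
A site was found by sequence alone, so it describes the transcript and not a cleavage event. The TOE1 and TOE2 sites differ only at the 5′ end of the site, away from the bases opposite the seed.

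Protein-coding loci gained small RNA reads as a class in ein5-1 ski2-3, and 6 other classes lost share. Protein-coding loci took 18.8% of the reads in ein5-1 ski2-3 and 9.90% in Col-0, a 1.90-fold higher share (1.88 to 1.91). Annotated long non-coding RNAs rose most, with 588 reads in ein5-1 ski2-3 and 166 in Col-0, a 4.61-fold higher share (3.87 to 5.51). Spliceosomal snRNA loci had a 1.74-fold higher share (1.53 to 1.97) and mitochondrial loci a 1.55-fold higher share (1.48 to 1.62). TAS loci, which make trans-acting siRNAs through RDR6, fell as a sum to 2.50% of reads in ein5-1 ski2-3, against 7.14% in Col-0. Of them 7 had more RPM in Col-0, but TAS4 went the other way. It held 1080 reads in ein5-1 ski2-3 and 8 in Col-0, 176-fold higher (88.8 to 408). Pseudogene and transposon-related loci took 3.81% in ein5-1 ski2-3 and 5.65% in Col-0, a 1.48-fold lower share (1.46 to 1.51). tRNA loci were 1.54-fold lower (1.50 to 1.58), rRNA loci 1.40-fold lower (1.39 to 1.42) and snoRNA loci 1.62-fold lower, with 226 reads in ein5-1 ski2-3 and 475 in Col-0. Other non-coding RNAs held 453 reads in ein5-1 ski2-3 and 794 in Col-0, a fold of 0.742 (0.660 to 0.834). The miRNA genes as a class were near level at 53.7% of reads in ein5-1 ski2-3 and 52.3% in Col-0, a direction that reversed under 3 other scalings, and the chloroplast loci, at a fold of 1.03, also changed direction under other scalings.

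The same sums for the triple mutant over rdr6-11 rest on 2 other libraries. There the protein-coding share was 1.65-fold higher (1.63 to 1.66) and the long non-coding share 2.95-fold higher (2.50 to 3.49). Pseudogenes were 1.34-fold lower and miRNA genes 1.46-fold lower in the triple mutant than in rdr6-11. The tRNA and rRNA loci moved the other way in that pair, at 1.10-fold and 1.20-fold higher in the triple mutant.

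**Figure D1:**
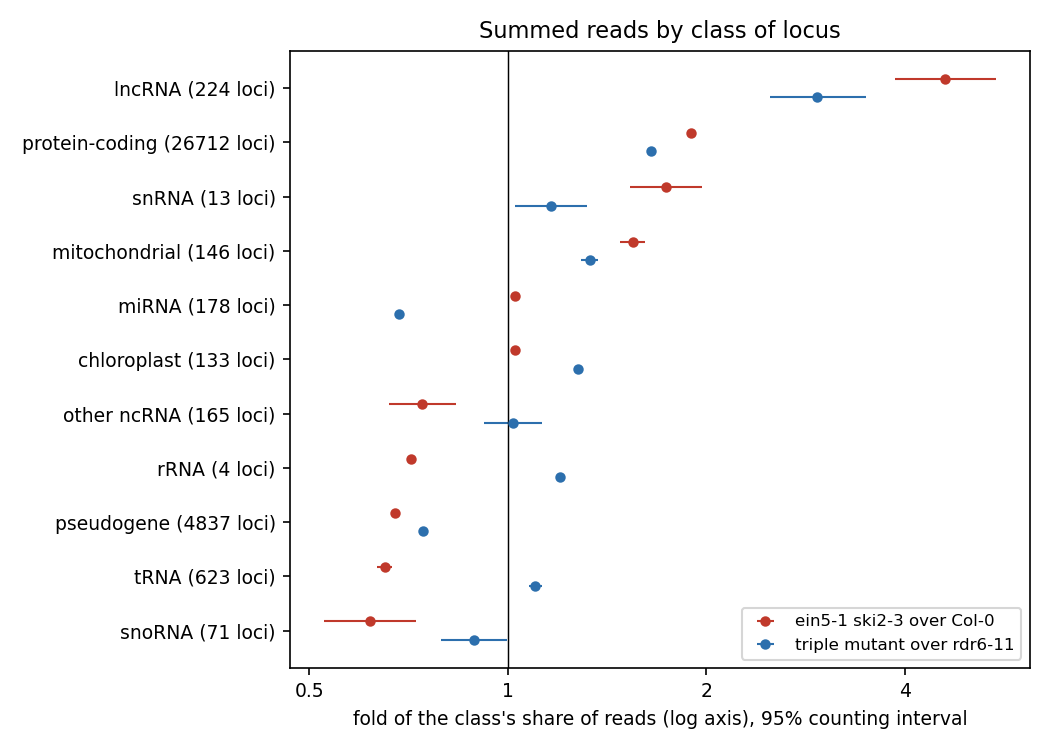
Fold change of the summed reads of each locus class, on a log axis, for ein5-1 ski2-3 over Col-0 (red) and for the triple mutant over rdr6-11 (blue), with 95% counting intervals. TAS loci and loci that the annotation does not match are not drawn. Long non-coding and protein-coding loci lie above 1 in both pairs and pseudogenes below 1 in both, while rRNA and tRNA loci lie below 1 in red and above 1 in blue.

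Of all 2485 measured loci, 491 were called higher in ein5-1 ski2-3 (19.8%) and 105 lower (4.23%). Of the 1102 measured protein-coding loci, 459 were higher (41.7%) and 23 lower (2.09%). The minimum of 20 reads lets in a low locus mainly through the library where it is high, so the share among measured loci is a description and not a rate over the genome. Among 800 measured pseudogenes 10 were higher (1.25%) and 31 lower (3.88%). Among 115 measured miRNA genes 5 were higher (4.35%) and 30 lower (26.1%). The remaining calls fell on tRNA loci (4 higher and 8 lower of 267), chloroplast loci (0 and 9 of 112), long non-coding RNAs (8 and 0 of 10), TAS loci (1 and 1 of 8), mitochondrial loci (1 and 1 of 34), other non-coding RNAs (0 and 1 of 8), snoRNAs (0 and 1 of 9) and loci that the annotation does not match (3 and 0 of 5).

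The gain at protein-coding loci was spread over many genes. Although its library was shallower, ein5-1 ski2-3 had reads at 16302 protein-coding loci, against 12671 in Col-0. The counts were 14847 in the triple mutant and 12163 in rdr6-11. It took the 382 loci of most reads to hold 50% of the protein-coding reads in ein5-1 ski2-3, against 92 loci in Col-0, and 400 in the triple mutant, against 94 in rdr6-11. The single locus of most reads held 3.10% of protein-coding reads in ein5-1 ski2-3 and 13.4% in Col-0. Col-0 thus had fewer genes with more of the reads each, and both libraries with the decay mutations had the flatter distribution.

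**Figure D2:**
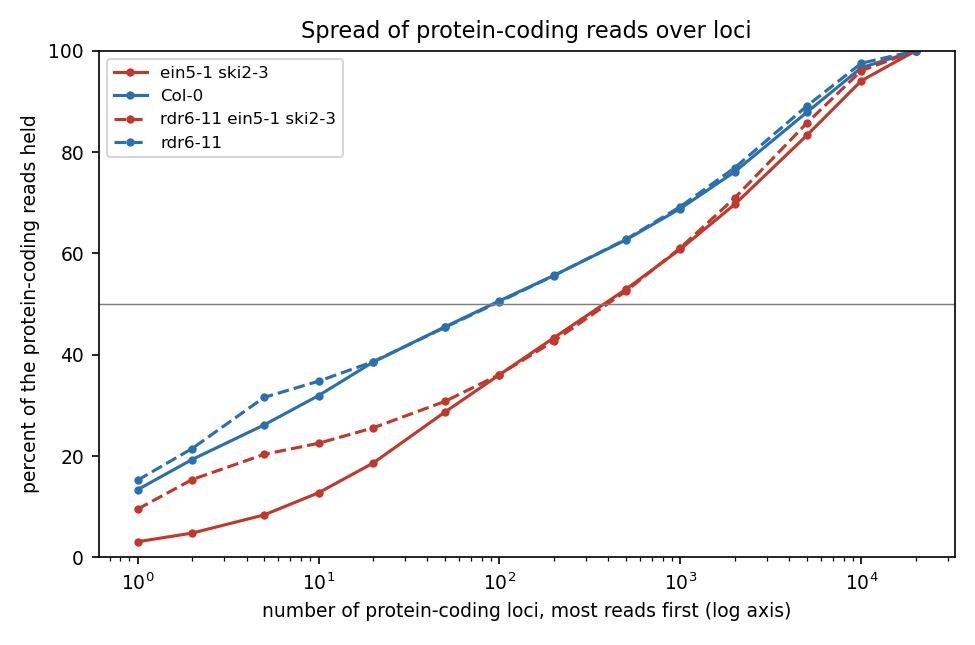
Cumulative percent of protein-coding reads against the number of loci, ranked by reads within each library, on a log axis, for ein5-1 ski2-3 and the triple mutant (red, solid and dashed) and for Col-0 and rdr6-11 (blue, solid and dashed). Both red curves run below and to the right of both blue curves and reach 50% at 382 and 400 loci, against 92 and 94 loci.

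In total the protein-coding loci held 187600 RPM in ein5-1 ski2-3 and 98990 RPM in Col-0, a net gain of 88620 RPM. The 20 loci of most reads did not share in it, at a fold of 0.953, and without them the class was 2.38-fold higher (2.36 to 2.41). The 26427 loci that held fewer than 50 reads in both libraries were together 2.20-fold higher (2.17 to 2.23) and made up 62.1% of the net gain. The 459 loci called higher held 45114 reads in ein5-1 ski2-3 and 2644 in Col-0, which is 78.2% of the net gain. Of these, the 20 loci of largest fold made up 25.8% (14250 reads in ein5-1 ski2-3 and 44 in Col-0) and the other 439 loci 52.4% (30864 reads in ein5-1 ski2-3 and 2600 in Col-0). The 25610 loci too low to be measured were also 2.20-fold higher and made up 45.1%. The 23 loci called lower took away 22.6%, a figure that rests largely on AT2G29530 (792 reads in ein5-1 ski2-3 and 10700 in Col-0). The 620 measured loci called neither way stood at a fold of 0.984.

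A typical called locus was small in reads. The median locus called higher had 35 reads in ein5-1 ski2-3 and 3 in Col-0, and 65 of the 459 had none in Col-0. Only 163 of them held at least 50 reads in ein5-1 ski2-3, while 240 held 20 to 49 and 56 held fewer than 20. Log2 folds with 1 read added ran from 2.01 at the lowest locus called higher to 10.2 at the highest, with a median of 3.70, and the locus just outside the threshold was at 1.99. The median depended on how loci were kept. Over the 930 protein-coding loci with at least 10 reads in rdr6-11, a library outside the comparison, the median log2 fold was 0.25 (quartiles -0.64 and 1.12) and 526 were above 0. Its sign turned under 2 of 4 other scalings (-0.05 with TMM scaling, -0.29 when small RNA, organelle, rRNA and tRNA loci were left out of the totals). It was 0.48 with a minimum of 5 reads in rdr6-11, -0.0744 with 20, and 1.12 over the 2402 loci with at least 10 reads in the triple mutant. Over pseudogenes chosen in the same way the median was -0.62 (1234 loci) and over miRNA genes -1.20 (122 loci), against -0.43 for all 2800 loci.

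In the triple mutant over rdr6-11, 435 of 3186 measured loci were called higher (13.7%) and 30 lower (0.942%), and 417 of 1544 protein-coding loci were higher (27%) and 11 lower (0.712%). Of the 459 protein-coding loci called higher in ein5-1 ski2-3, 300 were measured in the triple mutant and rdr6-11. There 226 of the 300 were called higher and none lower, 292 lay above 0, and the median log2 fold was 2.80. Of 477 measured loci not called in ein5-1 ski2-3, 42 were called higher in the triple mutant over rdr6-11 and the median log2 fold was 0.71. The summed reads of the 459 loci were 22.2-fold higher in ein5-1 ski2-3 than in Col-0 and 6.08-fold higher in the triple mutant than in rdr6-11. The loci called lower in ein5-1 ski2-3 were 7.45-fold lower there as a sum, with 1932 reads in ein5-1 ski2-3 and 18707 in Col-0. AT2G29530 alone held 792 of these reads in ein5-1 ski2-3 and 10700 in Col-0. With that locus included, the loci called lower were 1.47-fold lower in the triple mutant than in rdr6-11. Their median log2 fold in that pair was -0.39 over the 20 measured there.

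Loci called higher more often had a single exon. A single-exon gene model was found for 215 of the 459 loci called higher (46.8%), against 21.5% of the measured loci not called higher and 20.6% of all protein-coding loci. Read the other way, 3.91% of the 5495 single-exon genes were called higher and 1.15% of the 21217 genes with introns. For the triple mutant over rdr6-11 these shares were 3.55% and 1.05%. The higher share of single-exon genes was seen within each of 5 equal classes of spliced length in both pairs. In the middle class 7.37% of single-exon genes and 0.997% of genes with introns were called higher in ein5-1 ski2-3, and in the longest class 5.72% and 2.10%. Summed over all lengths, reads were 2.156-fold higher in ein5-1 ski2-3 than in Col-0 for single-exon genes (2.12 to 2.193). For genes with introns they were 1.797-fold higher (1.778 to 1.816). Summed reads in the middle class were 1.57-fold higher for single-exon genes and 1.93-fold for genes with introns, the reverse of the other classes. Over loci with at least 10 reads in rdr6-11, the median log2 fold was 0.20 for 182 single-exon genes. It was 0.25 for 748 genes with introns. The median spliced length was 1904 bases for loci called higher, 1859 for measured loci not called higher and 1541 for all. Median GC content differed little between these sets, at 42.1%, 41.8% and 41.3%.

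**Figure D3:**
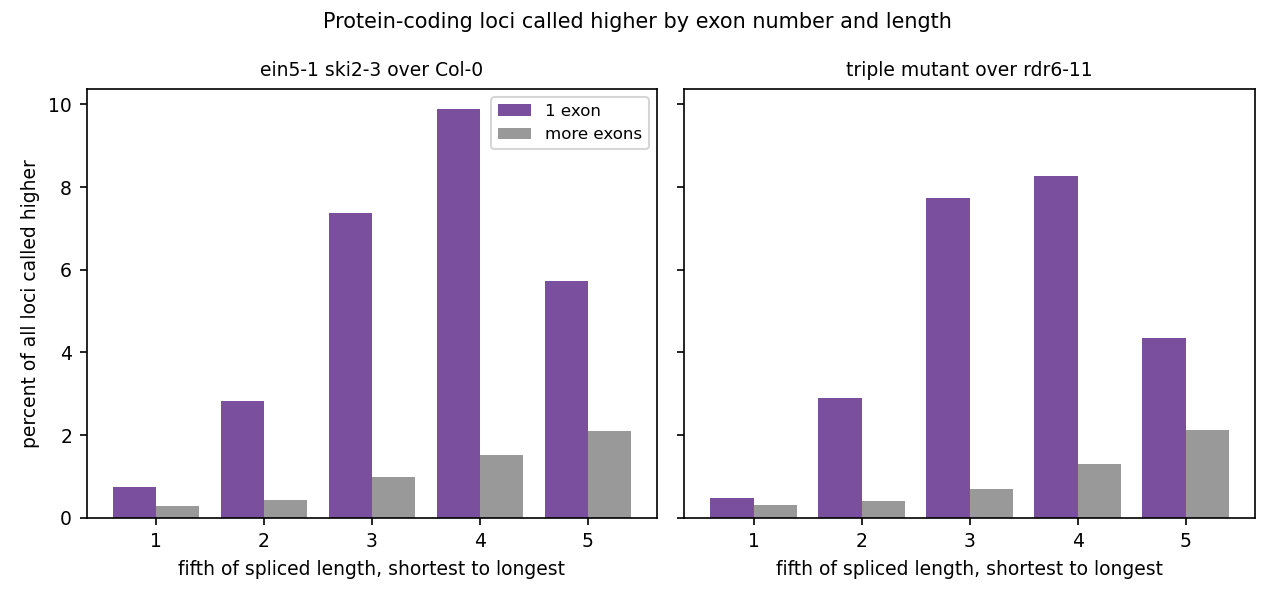
Percent of protein-coding genes called higher, for single-exon genes and genes with introns, within 5 classes of spliced length, for ein5-1 ski2-3 over Col-0 and for the triple mutant over rdr6-11. Single-exon genes lie above genes with introns in every class of both panels.

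The single-exon genes among the 459 also kept more of their gain where RDR6 was mutated. They summed to 18655 reads in ein5-1 ski2-3 and 936 in Col-0 (25.9-fold), and to 11342 reads in the triple mutant and 1150 in rdr6-11 (9.87-fold, 9.29 to 10.5). The called genes with introns summed to 26459 reads in ein5-1 ski2-3 and 1708 in Col-0 (20.2-fold), and to 8862 reads in the triple mutant and 2178 in rdr6-11 (4.07-fold, 3.89 to 4.27). By locus, 135 of 155 measured single-exon genes (87.1%) and 91 of 145 genes with introns (62.8%) were called higher in the triple mutant over rdr6-11. These counts are to be read against all protein-coding loci measured in that pair. There 52.6% of 371 single-exon genes and 18.9% of 1173 genes with introns were called higher.

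Genes were then grouped by key words in their annotation, and each group was summed without its locus of most reads. In a group with few reads, 1 of the remaining genes can still set much of the value. Among 47 groups, 33 rose more than the 2.17-fold of all protein-coding loci treated in the same way, and 31 of these also rose more than the 1.83-fold of all protein-coding loci in the triple mutant over rdr6-11. Several of the 33 had intervals that include 2.17, such as calcium and calmodulin genes at 2.17 (1.93 to 2.45). Without their 20 loci of most reads, all protein-coding loci stood at 2.38-fold. The counting interval lay above 1 for 42 groups and below 1 for 1. The sums of MADS-box, light-harvesting, organelle ribosomal and proteasome genes changed direction under at least 1 other scaling. The SMXL and Clp-type group, which includes repressors of strigolactone and karrikin responses, stood highest in ein5-1 ski2-3 at 53.3-fold (33.9 to 89.1), with 3 of 4 measured members of 11 called higher, and at 3.54-fold in the triple mutant over rdr6-11. Homeobox genes (14.3) and UDP-glycosyltransferases (14.2) came next, then AP2/ERF and bZIP factors (6.84 and 6.77) and aspartyl proteases (6.27, a group made after the values were seen). Counts of called members are to be read against the 41.7% of all measured protein-coding loci, and a member low in Col-0 was measured mainly through its reads in ein5-1 ski2-3.

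**Figure D4:**
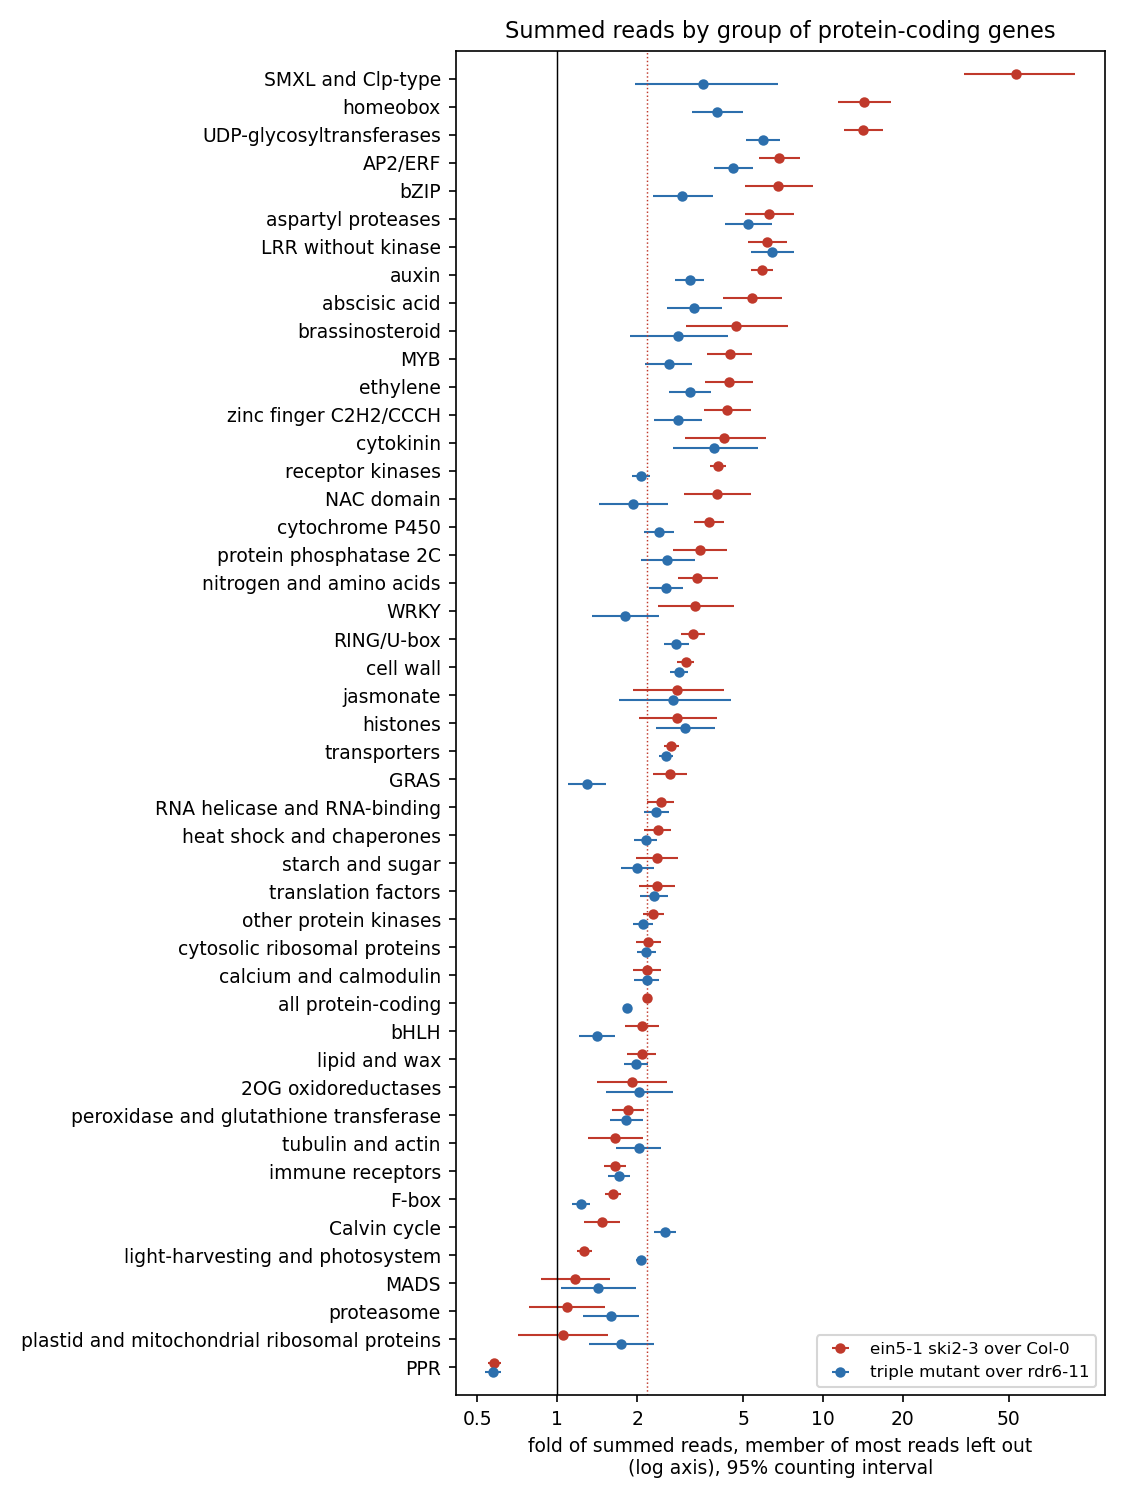
Fold change of the summed reads of each annotation group without its locus of most reads, on a log axis, for ein5-1 ski2-3 over Col-0 (red) and the triple mutant over rdr6-11 (blue), with 95% counting intervals. The gibberellin group, which had few reads, is not drawn. The dotted red line marks all protein-coding loci at 2.17, and pentatricopeptide repeat genes lie below 1 in both colours.

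UDP-glycosyltransferases (UGTs), which attach sugars to hormones and secondary metabolites, had few members measured, and all of those were called higher. These were 16 of 133 members, set against 41.7% of measured protein-coding loci. Over the whole group 88 members had more RPM in ein5-1 ski2-3 and 19 more in Col-0, and 26 had no read. Of all protein-coding loci, 13996 had more RPM in ein5-1 ski2-3 and 5554 more in Col-0. The group without its top locus was 14.2-fold higher in ein5-1 ski2-3 (12.0 to 16.9) and 5.93-fold higher in the triple mutant over rdr6-11. UGT75B1 (AT1G05560) held 411 reads in ein5-1 ski2-3 and 19 in Col-0, 28.1-fold higher (17.8 to 47.2), and 419 in the triple mutant and 24 in rdr6-11. AT2G18570, annotated only as a member of the superfamily, held 461 reads in ein5-1 ski2-3 and 7 in Col-0 (85.65-fold), and AT2G18560, next to it in the numbering, held 121 in ein5-1 ski2-3 and 4 in Col-0. UGT71B1 (AT3G21750) held 78 reads in ein5-1 ski2-3 and 8 in Col-0. Of the 16 members, 14 have a single exon.

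Transcription factor families rose in the order homeobox, AP2/ERF, bZIP and MYB, with overlapping intervals for AP2/ERF and bZIP. Homeobox genes had 11 of 12 measured members called higher (91.7%) and were 14.3-fold higher (11.4 to 18.1) without the top locus, and 4.01-fold higher in the triple mutant. REV (AT5G60690), which sets the upper side of leaves and vascular pattern, held 140 reads in ein5-1 ski2-3 and 0 in Col-0. That is 60.7-fold higher against a floor of 3 reads, with a counting interval that starts at 48.7. Its relatives ATHB-15 (AT1G52150) and PHV (AT1G30490) held 73 and 63 reads in ein5-1 ski2-3 and none in Col-0. The place of homeobox genes first among these families rested on the 5 genes under miR166 (REV, ATHB-15, PHV, PHB and ATHB8), which together held 810 reads in ein5-1 ski2-3 and 3 in Col-0. Without all 5, a choice made after the data were seen, the homeobox fold was 6.01 (4.72 to 7.73) in ein5-1 ski2-3, below AP2/ERF and bZIP with overlapping intervals, and 3.42 in the triple mutant over rdr6-11, and 6 of 7 measured members were called higher. BLH1 (AT2G35940), a BEL1-like homeodomain factor with no printed miRNA site, held 49 reads in ein5-1 ski2-3 and none in Col-0.

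AP2/ERF factors, many of which act in ethylene and stress responses, had 13 of 15 measured members called higher and a fold of 6.84 (5.76 to 8.18). RAV2 (AT1G68840) held 129 reads in ein5-1 ski2-3 and 8 in Col-0, 21.0-fold higher, and RAP2.4 (AT1G78080) held 101 in ein5-1 ski2-3 and 9 in Col-0, 14.6-fold higher. RAV2 held 135 reads in the triple mutant and 28 in rdr6-11, and RAP2.4 held 102 in the triple mutant and 1 in rdr6-11. ERF15 (AT2G31230) held 40 reads in ein5-1 ski2-3 and 0 in Col-0, and ERF4 (AT3G15210), a repressor of ethylene-responsive genes, held 44 in ein5-1 ski2-3 and 1 in Col-0. Of the 13 members called higher, 12 have a single exon. All 4 held more reads in both lines with the decay mutations than in Col-0 and rdr6-11.

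The bZIP group was 6.77-fold higher (5.10 to 9.13), with 4 of 5 measured members called higher. bZIP2 (AT2G18160) held 91 reads in ein5-1 ski2-3 and 3 in Col-0, and GBF6 (AT4G34590, also known as bZIP11), a factor whose translation is repressed by sucrose, held 36 in ein5-1 ski2-3 and 0 in Col-0. MYB factors were 4.45-fold higher (3.67 to 5.42), with 9 of 10 measured members called higher. MYB28 (AT5G61420), which drives aliphatic glucosinolate synthesis, held 37 reads in ein5-1 ski2-3 and 1 in Col-0, and MYB3 (AT1G22640) and MYB4 (AT4G38620), repressors of phenylpropanoid synthesis, each held 27 in ein5-1 ski2-3 and 2 in Col-0. bHLH factors had 3 of 8 measured members higher, near the share of all measured protein-coding loci, and a fold of 2.08, close to the 2.17 of all protein-coding genes, and MADS-box factors had 0 of 2 and a fold of 1.17.

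Among hormone groups, auxin genes had 12 of 16 measured members called higher (75%, beside 41.7% of all measured protein-coding loci) and a fold of 5.89 (5.35 to 6.49). Of the 212 members, 121 were higher in RPM in ein5-1 ski2-3 and 35 higher in Col-0, beside 13996 and 5554 of all protein-coding loci. ARF10 (AT2G28350), an auxin response factor and miR160 target, held 158 reads in ein5-1 ski2-3 and 10 in Col-0, 20.55-fold higher (10.9 to 43.7). IAA2 (AT3G23030), a repressor of auxin response, held 68 reads in ein5-1 ski2-3 and 4 in Col-0, and AUF1 (AT1G78100), an F-box protein of auxin transport, held 45 in ein5-1 ski2-3 and 0 in Col-0. BIG (AT3G02260), a very large protein needed for auxin transport, held 74 reads in ein5-1 ski2-3 and 19 in Col-0 (5.07-fold). Abscisic acid genes were 5.41-fold higher (4.20 to 7.03) without NCED4 (AT4G19170), their locus of most reads. NCED4 held 74 reads in ein5-1 ski2-3 and 2 in Col-0. NCED3 (AT3G14440), a carotenoid-cleaving enzyme at the limiting step of abscisic acid synthesis under drought, held 37 in ein5-1 ski2-3 and 0 in Col-0. Ethylene genes were 4.42-fold higher (3.61 to 5.44), and all 7 called members have a single exon. Cytokinin and brassinosteroid groups were 4.26-fold and 4.69-fold higher, each with 2 of 2 measured members called, among them CRF6 (AT3G61630) with 32 reads in ein5-1 ski2-3 and 0 in Col-0, and BRH1 (AT3G61460) with 53 in ein5-1 ski2-3 and 2 in Col-0. BRH1 thus held 53 of the 101 reads in ein5-1 ski2-3, and 2 of the 28 in Col-0, on which the brassinosteroid fold rests. The jasmonate group had 0 of 1 measured members called and a fold of 2.83 (1.92 to 4.22). The gibberellin group had 1 measured member, called higher, and without it a fold of 1.73 with an interval that includes 1 (0.902 to 3.39).

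The DELLA proteins, which hold back gibberellin responses, were looked at after their values had been seen. GAI (AT1G14920) held 59 reads in ein5-1 ski2-3 and 3 in Col-0, 25.6-fold higher, and RGA1 (AT2G01570) held 36 in ein5-1 ski2-3 and 8 in Col-0, 5.85-fold higher. They were the 2 measured members of 5. GAI held 40 reads in the triple mutant and 4 in rdr6-11, and RGA1 held 32 in the triple mutant and 10 in rdr6-11.

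Receptor kinases were 4.04-fold higher (3.76 to 4.33) and 2.06-fold higher in the triple mutant, with 15 of 33 measured members called higher (45.5%, near the 41.7% of all measured protein-coding loci) and 1 lower. PXY (AT5G61480), a receptor that keeps the cambium dividing, held 229 reads in ein5-1 ski2-3 and 5 in Col-0, 59.6-fold higher (25.2 to 185), and 7 in the triple mutant against 6 in rdr6-11. BAM3 (AT4G20270) and BAM1 (AT5G65700), receptors of CLE peptides, held 165 and 126 reads in ein5-1 ski2-3 and 3 and 5 in Col-0. Both were also counted in the triple mutant, BAM3 with 8 reads and BAM1 with 50, against 2 and 8 in rdr6-11. Without RDR6 the fold was 6.26 at BAM1 (2.94 to 15.3) and 1.17 at PXY (0.336 to 4.21). AT1G51910, the receptor kinase called lower, held 2 reads in ein5-1 ski2-3 and 22 in Col-0.

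Leucine-rich repeat proteins without a kinase domain, a group made after the values were seen, had 9 of 11 measured members called higher and were 6.16-fold higher in ein5-1 ski2-3 and 6.45-fold higher in the triple mutant. They include extracellular wall proteins. LRX3 (AT4G13340), a leucine-rich repeat extensin, held 168 reads in ein5-1 ski2-3 and 33 in Col-0, and 236 in the triple mutant and 14 in rdr6-11. AT3G24480 held 151 reads in ein5-1 ski2-3 and 9 in Col-0 (21.8-fold). The cell wall group was 3.04-fold higher (2.82 to 3.28), with 18 of 35 measured members of 516 called higher (51.4%, beside 41.7% of all measured protein-coding loci). ATCSLA09 (AT5G03760), a glucomannan synthase, held 191 reads in ein5-1 ski2-3 and 12 in Col-0. XTH9 (AT4G03210), a xyloglucan-remodelling enzyme, held 139 in ein5-1 ski2-3 and 5 in Col-0, and SOS5 (AT3G46550), a fasciclin-like arabinogalactan protein, held 109 in ein5-1 ski2-3 and 12 in Col-0. SOS5 held 186 reads in the triple mutant and 9 in rdr6-11, and XTH9 held 8 in the triple mutant and 0 in rdr6-11.

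RING and U-box ubiquitin ligases were 3.24-fold higher, with 9 of 14 measured members called higher, among them PUB25 (AT3G19380) at 96 reads in ein5-1 ski2-3 and 6 in Col-0. F-box genes, a very large family of 747, had 12 of 30 measured members higher (40%, near the 41.7% of all measured protein-coding loci) and 2 lower. Their summed fold of 1.62 (1.51 to 1.74) was below the 2.17 of all protein-coding loci. Within it the KISS ME DEADLY genes, which target cytokinin response regulators and were listed after their values had been seen, had 3 of 4 measured members called higher. KMD4 (AT3G59940) held 166 reads in ein5-1 ski2-3 and 14 in Col-0 (15.4-fold), and KMD2 (AT1G15670), the member not called, held 24 in ein5-1 ski2-3 and 19 in Col-0.

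Other groups of enzymes and transporters stood above all protein-coding genes. Cytochrome P450 genes were 3.72-fold higher with 8 of 12 measured members called, among them CYP83B1 (AT4G31500) of indole glucosinolate synthesis at 49 reads in ein5-1 ski2-3 and 6 in Col-0. Transporters were 2.68-fold higher with 13 of 24. GTR2 (AT5G62680), a glucosinolate transporter, held 56 reads in ein5-1 ski2-3 and 0 in Col-0, and COPT6 (AT2G26975), a copper transporter, held 87 in ein5-1 ski2-3 and 8 in Col-0. AT1G18000 and AT1G18010 held 465 and 461 reads in ein5-1 ski2-3 and 27 and 32 in Col-0. They are near-identical neighbours that can share reads, so which of them the reads came from is uncertain. Of the polyamine enzymes, listed after the values were seen, SAMDC (AT3G02470) held 193 reads in ein5-1 ski2-3 and 6 in Col-0 (41.8-fold), and ADC2 (AT4G34710) held 90 in ein5-1 ski2-3 and 1 in Col-0.

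Genes of bulk cell functions lay near or below the protein-coding background in ein5-1 ski2-3, except histones at 2.82-fold (2.02 to 3.99, an interval that includes 2.17), but several lay above it in the triple mutant over rdr6-11. The key word group named cytosolic ribosomal proteins was not checked gene by gene and may hold organelle ones. It had 0 of 5 measured members of 354 called, and its sum was 2.20-fold higher (1.97 to 2.46), as in all protein-coding genes. Tubulins and actins had 0 of 4 called and a fold of 1.65, and proteasome subunits 0 of 1 and a fold of 1.09 (0.785 to 1.51). Calvin cycle genes had 1 of 15 called higher and a fold of 1.47 (1.27 to 1.72). Nuclear light-harvesting and photosystem genes had 1 of 35, PSAD-1 (AT4G02770) at 61 reads in ein5-1 ski2-3 and 17 in Col-0, and a fold of 1.26 (1.19 to 1.35). Against the 1.83 of all protein-coding loci in the triple mutant over rdr6-11, the fold there was 3.03 for histones (2.35 to 3.93), 2.54 for Calvin cycle genes (2.31 to 2.79), 2.17 for cytosolic ribosomal proteins (1.99 to 2.35), 2.06 for light-harvesting and photosystem genes (1.98 to 2.15), 2.02 for tubulins and actins (1.67 to 2.46) and 1.60 for proteasome subunits. Immune receptors of the nucleotide-binding type had 2 of 24 called higher and a fold of 1.65 (1.50 to 1.81). Within translation factors, AT5G54940, a member of the SUI1 initiation factor family, stood apart with 467 reads in ein5-1 ski2-3 and 3 in Col-0 (202-fold), and 113 in the triple mutant and 2 in rdr6-11. GRP7 (AT2G21660), a clock-regulated RNA-binding protein, held 140 reads in ein5-1 ski2-3 and 4 in Col-0 (45.5-fold).

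Pentatricopeptide repeat (PPR) genes, which act in organelle RNA processing and include sources of RDR6-dependent siRNAs, were the group that fell. Without the top locus they were 1.73-fold lower in ein5-1 ski2-3, and 0 of 17 measured members of 280 were called higher and 1 lower. That gene, AT5G41170, held 66 reads in ein5-1 ski2-3 and 426 in Col-0, 4.96-fold lower, and 112 in the triple mutant and 376 in rdr6-11. By member, 144 had more RPM in ein5-1 ski2-3 and 69 had more in Col-0, while the summed reads were lower. These counts are to be read beside 13996 and 5554 of all protein-coding loci. PPR genes and F-box genes are rich in single-exon genes (61.4% and 45.1% of members), and both groups stood below the fold of all protein-coding loci.

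The annotated long non-coding RNAs that were measured, whether they gained reads or not, overlap protein-coding genes. Of 10 measured, 8 were called higher, and each of the 8 overlaps a protein-coding gene that also had more RPM in ein5-1 ski2-3. Of those not called, AT2G10921 overlaps AT2G10920, with no read in either library. AT5G01732 overlaps SCAR4 (AT5G01730), with 28 reads in ein5-1 ski2-3 and 41 in Col-0. AT3G21755 held 59 reads in ein5-1 ski2-3 and 0 in Col-0 and overlaps UGT71B1, described with the UGTs, and HYR1 (AT3G21760), with 59 reads in ein5-1 ski2-3 and 1 in Col-0. AT2G35945 held 33 reads in ein5-1 ski2-3 and 0 in Col-0 and overlaps BLH1. AT5G01215 held 39 in ein5-1 ski2-3 and 0 in Col-0 and overlaps AT5G01210, with 43 in ein5-1 ski2-3 and 0 in Col-0. Because strand is not in the table, reads of the non-coding RNA and of the gene it overlaps cannot be told apart. Thus 1 read may have been counted at both. Over all protein-coding loci called higher, 19.2% overlap a gene on the other strand, against 22.2% of measured loci not called higher.

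**Figure D5:**
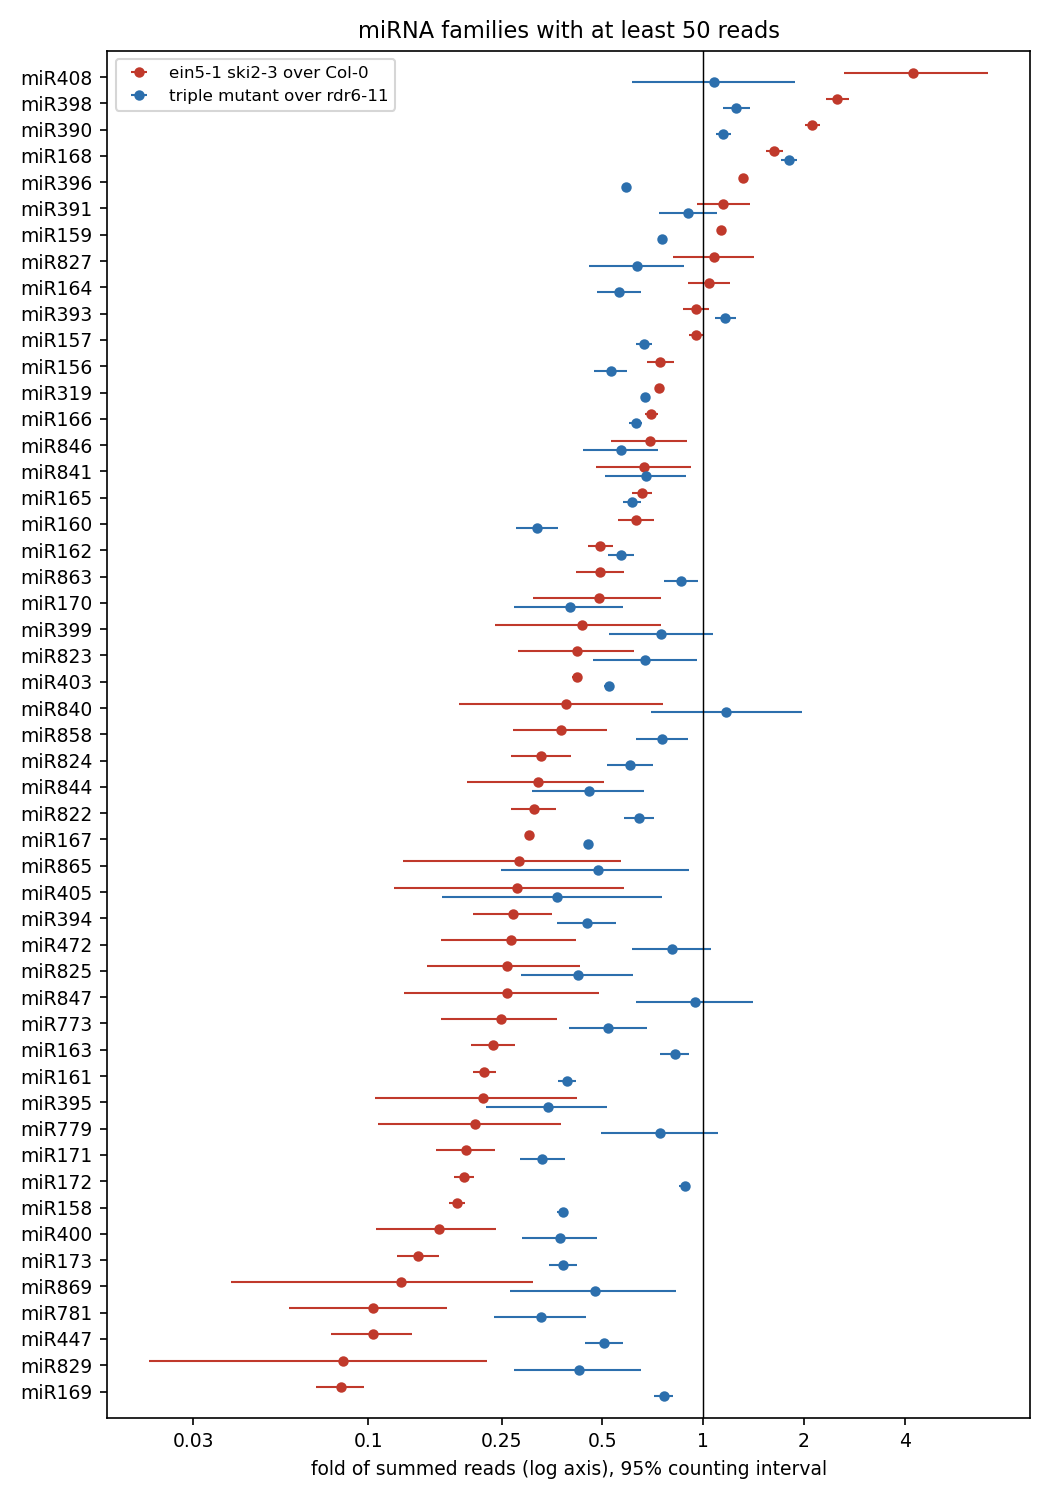
Fold change of the summed reads of each miRNA family with at least 50 reads, on a log axis, for ein5-1 ski2-3 over Col-0 (red) and the triple mutant over rdr6-11 (blue), with 95% counting intervals. Most red points lie below 1, with miR169 lowest at 12.1-fold lower, and no blue point is as low as 4-fold lower.

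Most miRNA families lost share although the class as a whole was level. Of 51 families with at least 50 reads, 42 were lower in ein5-1 ski2-3, 41 of them with a counting interval below 1, and 15 were at least 4-fold lower. In the triple mutant over rdr6-11 45 were lower, but none by 4-fold. The level of the class rested on miR159 and miR396, which held 46.6% of all reads in ein5-1 ski2-3 and 38.9% in Col-0. All other miRNA genes held 7.01% in ein5-1 ski2-3 and 13.4% in Col-0, a 1.91-fold lower share (1.89 to 1.93). Gene-by-gene counts within a family can be shared between loci of identical mature sequence.

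The family that fell furthest among the 10 of largest change in RPM was miR169, which acts on NF-YA factors, with 159 reads in ein5-1 ski2-3 and 2502 in Col-0, 12.1-fold lower. It held 1667 reads in the triple mutant and 2188 in rdr6-11. miR158 held 1430 reads in ein5-1 ski2-3 and 10078 in Col-0 (5.42-fold lower). miR172, which acts on AP2-type floral repressors, held 921 in ein5-1 ski2-3 and 6187 in Col-0 (5.17-fold lower). miR161, which acts on PPR genes, held 704 in ein5-1 ski2-3 and 4122 in Col-0 (4.50-fold lower). miR167, which acts on ARF6 and ARF8, held 5120 in ein5-1 ski2-3 and 22013 in Col-0 (3.31-fold lower). miR403, which acts on AGO2, held 3777 in ein5-1 ski2-3 and 11692 in Col-0 (2.38-fold lower), and AGO2 itself was among the loci called lower. miR319, which acts on TCP factors, held 11316 in ein5-1 ski2-3 and 19873 in Col-0 (1.35-fold lower).

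Of the 10 families, 3 had a higher share in ein5-1 ski2-3. miR390, which starts siRNA production at TAS3, held 3499 reads in ein5-1 ski2-3 and 2143 in Col-0, 2.12-fold higher. miR396, which acts on growth-regulating factors, held 115576 in ein5-1 ski2-3 and 114492 in Col-0 (1.31-fold higher), and miR159, which acts on GAMYB-like factors, held 174311 in ein5-1 ski2-3 and 200119 in Col-0 (1.13-fold higher). The last fold reversed under 3 of 4 other scalings, and that of miR396 under 1. Outside that rule, and named after their values were seen, miR398 was 2.52-fold higher and miR408 4.24-fold higher, a pair that is known to respond to copper shortage, while miR173 was 7.10-fold lower with 217 reads in ein5-1 ski2-3 and 2003 in Col-0.

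Reads counted at isoforms that share a seed moved unequally in ein5-1 ski2-3. The difference was smaller in the triple mutant over rdr6-11 for all 4 pairs, and in the other order for MIR396. MIR396a held 109159 reads in ein5-1 ski2-3 and 95269 in Col-0 (1.49-fold higher), whereas MIR396b held 6417 in ein5-1 ski2-3 and 19223 in Col-0 (2.30-fold lower). MIR159b was 1.18-fold higher, with 150013 reads in ein5-1 ski2-3 and 165631 in Col-0, and MIR159a, at 24108 in ein5-1 ski2-3 and 34232 in Col-0, had a fold of 0.916. MIR167d was 4.80-fold lower (2636 reads in ein5-1 ski2-3 and 16470 in Col-0), and MIR167a was 1.84-fold lower (1395 in ein5-1 ski2-3 and 3329 in Col-0). MIR319c was 2.45-fold lower (2782 in ein5-1 ski2-3 and 8851 in Col-0), and MIR319a, at 4583 in ein5-1 ski2-3 and 5756 in Col-0, had a fold of 1.035 (0.996 to 1.08). Folds this near 1 lie within the shifts that other scalings make. In the triple mutant over rdr6-11 the folds were 0.562 for MIR396a and 0.678 for MIR396b, 0.771 for MIR159b and 0.684 for MIR159a, 0.368 for MIR167d and 0.792 for MIR167a, and 0.659 for MIR319c and 0.670 for MIR319a. The isoforms of each pair, as printed above, differ near the 3′ end. A read that lacks those bases cannot be assigned to 1 gene of a pair, and how such reads were placed was not given. The 5 miRNA genes called higher were MIR398a, MIR408, MIR156f, MIR845a and MIR828, with 265, 75, 88, 44 and 20 reads in ein5-1 ski2-3 and 48, 23, 21, 2 and 2 reads in Col-0, in that order.

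Of 69 listed miRNA targets 28 were measured, and 19 of these were called higher and 2 lower, beside 41.7% and 2.09% of measured protein-coding loci. The list as a whole had more RPM in ein5-1 ski2-3 at 58 members and less at 9, beside 13996 and 5554 of all protein-coding loci. Without its top locus it was 3.43-fold higher (3.20 to 3.67) in ein5-1 ski2-3 and 1.50-fold higher in the triple mutant over rdr6-11. PHB (AT2G34710), a homeobox gene with the miR166 site printed above, held 279 reads in ein5-1 ski2-3 and 2 in Col-0, and 18 in the triple mutant and 0 in rdr6-11. AGO1 (AT1G48410), the main miRNA-binding Argonaute, held 121 reads in ein5-1 ski2-3 and 12 in Col-0. TOE1 (AT2G28550) held 36 reads in ein5-1 ski2-3 and 0 in Col-0, while TOE2 (AT5G60120), with a miR172 site that has the same bases opposite the seed, held 27 in ein5-1 ski2-3 and 163 in Col-0, 4.64-fold lower. AGO2 (AT1G31280) held 59 in ein5-1 ski2-3 and 405 in Col-0, 5.28-fold lower. Lower values for both were also counted in the triple mutant, AGO2 with 180 reads and TOE2 with 122, against 310 and 181 in rdr6-11. Targets that were not called included HAM1 (AT2G45160), HAM2 (AT3G60630) and HAM3 (AT4G00150), shoot meristem factors under miR171, with 92, 89 and 113 reads in ein5-1 ski2-3 and 98, 108 and 113 in Col-0.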

How the data were processed

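Small RNA from aerial tissue was sequenced from 1 library each of ein5-1 ski2-3, Col-0, the triple mutant and rdr6-11, grouped by their genotype labels. Per the file headers, the authors deposited a read count and an RPKM value (reads per length of locus and depth of library) for every locus and library. The submitters' processing notes name CASAVA 1.8.2, BWA and TAIR9, without roles. Trimming, strand, size range and the handling of reads with several matches were not given in the sources used here. RPKM was used only to check locus lengths, which were identical between ein5-1 ski2-3 and Col-0 at all 13537 loci compared, within 0.01%.

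Counts were scaled to column sums (621515 reads for ein5-1 ski2-3, 808276 for Col-0), at which 1 read is worth 1.61 and 1.24 RPM. Folds of single loci and sums carry no added read, log2 folds and calls carry 1. Intervals are exact conditional binomial. A count of 0 was set to a floor of 3 reads to give a fold, which is not the lower limit of the counting interval. PCR copies are not separate molecules, so intervals cover counting error only. Loci were matched by identifier to the RefSeq TAIR10.1 annotation (32835 of 33602) for class, exons and overlaps, and printed coordinates are TAIR10.1. Target sites were searched in RefSeq transcripts.

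Members, groups and lists were chosen with earlier results of these data known, and support nothing beyond their values. Groups came from 47 sets of key words, and overlap. The rule for names took up to 4 called members of each group or list of largest change in RPM in each direction, preferring genes not named in an earlier account, the 10 miRNA families of largest change, and list members with at least 20 reads. Partners of non-coding RNAs, the miRNA genes called higher and single families outside the 10 were named after their values were seen. Python 3.11.15 with pandas 2.3.3, scipy 1.17.1 and matplotlib 3.10.9 was used, and edgeR 4.0.16 in R 4.3.3 for TMM scaling factors only. The calling step was checked on simulated counts.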

Additional observations from a re-analysis of the deposited data

Results flagged for a closer look

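The results below moved one way in ein5-1 ski2-3 over Col-0 and the other way in the triple mutant over rdr6-11. With 1 library in each group the difference was not tested.

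Among classes, TAS loci stood at a fold of 0.3498 in ein5-1 ski2-3 over Col-0 and 4.104 in the triple mutant over rdr6-11, where few TAS reads remained. The miRNA genes stood at 1.026 and 0.6848 in the same order, rRNA loci at 0.7134 and 1.198, and tRNA loci at 0.6506 and 1.101. The miR159 family stood at 1.133 and 0.7561, and miR396 at 1.313 and 0.5875.

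Of the 459 protein-coding loci called higher in ein5-1 ski2-3, 5 had a counting interval below 1 in the triple mutant over rdr6-11, with no minimum of reads there. Among the 300 of the 459 that were measured in that pair, 292 lay above 0 and none was called lower. AT1G27520 was 8.193-fold in ein5-1 ski2-3 over Col-0 (126 and 20 reads) and 0.07701-fold in the triple mutant over rdr6-11 (1 and 13). MCCA (AT1G03090) was 8.236-fold and 0.1001-fold, on 19 and 3 and on 1 and 10 reads. AT1G27520 and MCCA fell short of 20 reads over the triple mutant and rdr6-11, so they were not measured in that pair. FRS11 (AT1G10240) was 6.603-fold and 0.2966-fold, AT3G21945 8.027-fold and 0.5006-fold, and AT5G41330 6.134-fold and 0.5969-fold. Of the 23 protein-coding loci called lower, 3 went the other way. DIN10 (AT5G20250), a gene induced in the dark, was 0.06613-fold in ein5-1 ski2-3 (3 and 59 reads) and 3.419-fold in the triple mutant (140 and 41). TCH3 (AT2G41100), a touch-induced calmodulin-like gene, was 0.1626-fold and 6.315-fold, and FRO6 (AT5G49730), a ferric reductase, 0.1626-fold and 2.215-fold. MCCA, TCH3, DIN10 and AT5G41330 overlap another gene, and strand is not in the table.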

How the results depend on the processing

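No paired analysis was possible because each genotype had 1 library, and for the same reason no replicate could be left out. Other scalings moved the log2 fold of every locus in ein5-1 ski2-3 over Col-0 by -0.19 (median of ratios), -0.30 (TMM), -0.04 (reads at miRNA genes) and -0.54 (totals without small RNA, organelle, rRNA and tRNA loci, here the reduced totals). The 491 higher and 105 lower loci (82.4% higher) became 431 and 191 with TMM (69.3%) and 394 and 284 with reduced totals (58.1%). With minimums of 10, 100 and none, and with at least 50 reads in the higher library, 1006, 96, 1694 and 175 loci were higher and 188, 45, 245 and 59 lower. Of protein-coding loci, 944, 89, 1603 and 163 were higher and 50, 11, 80 and 14 lower. Lower loci numbered 494 at 2-fold, 24 at 8-fold and 50 with 5 reads added (protein-coding 87, 4 and 11). Protein-coding lower loci numbered 37 with median of ratios, 46 with TMM and 63 with reduced totals. The 1.90-fold gain of summed protein-coding reads was 1.66, 1.54, 1.85 and 1.30 under the 4 scalings, 2.38 without the 20 loci of most reads and 2.20 for loci under 50 reads. The miRNA sum, 1.03-fold, was 0.899 with median of ratios, 0.832 with TMM, 0.705 with reduced totals and 0.524 without miR159 and miR396. The median log2 fold of 0.25 became 0.0572 (median of ratios), -0.0534 (TMM) and -0.29 (reduced totals), 0.48 with at least 5 and -0.0744 with at least 20 reads in rdr6-11, and 1.12 when loci were kept by the triple mutant. The cause of these changes was not tested. TMM kept the count of higher members within 1.5 times in 42 of 47 groups, and at least 50 reads in 18, the other 29 being thinner. Depth limits single loci, since the median protein-coding locus called higher held 35 reads in ein5-1 ski2-3.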
